A study of Mus musculus with 20 samples.

Results

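The comparison described here sets endothelial cells that express a constitutively active Notch1 against control endothelial cells, both from mouse ears with contact inflammation. It rests on 10 of the 20 arrays of the series, 4 from NICD1-EC-OE mice (called NICD below, for the Notch1 intracellular domain) and 6 from control mice, all from ears challenged with the hapten DNFB (dinitrofluorobenzene). The arrays were chosen by their labels alone and by no measured value. In the NICD endothelium several Notch targets, artery genes and genes of antigen presentation and the interferon response rose, and so did vein, lymphatic and general endothelial genes. Among the genes that fell were the chemokines Cxcl1 and Cxcl5 and 9 of 25 genes of the electrophile response.

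Every mouse, control or NICD, had 5 daily tamoxifen injections. DNFB was put on the skin on days 0 and 1 to sensitise the animals and a single ear dose on day 5 started the inflammation that was sampled after 24 hours. Collagenase I released the cells, and those that stained for CD31 but neither CD45 nor Ter119 were sorted, which keeps blood and lymphatic endothelium and is meant to leave out leukocytes and red cells. RNA was amplified with a kit for very small inputs from 1 ng and hybridised to Affymetrix arrays. The labels give no strain or age, and call the control genotype only "control". Of the NICD mice the genotype label says Pdgfb-CreERT2; R26-NICD, while the growth protocol names a CDH5-iCre crossed to RosaNICD, so which promoter drove the recombinase is not settled. No label says that replicates came from separate animals, so the p-values measure the spread between these samples, part of which may be technical.

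The sort gave endothelium in both groups. Pecam1, which encodes CD31, ran from 7.43 to 7.73 in control and 7.81 to 8.01 in NICD arrays, on the scale used throughout for levels (log2 over the array's own median), and Cdh5, the adhesion protein VE-cadherin, from 7.77 to 8.15 and 8.35 to 8.58. Ptprc, which encodes CD45, lay at 0.30 to 2.26 and 0.76 to 2.31. The keratin Krt14 of basal keratinocytes was high in both, at 7.18 to 8.39 and 7.55 to 8.20. Sex and array set run with the genotype, and their parts cannot be told apart from it. Xist, transcribed from the silenced X chromosome of females, lay at -1.34 to -0.88 in control and 4.95 to 5.24 in NICD arrays, and the Y-linked Eif2s3y at 2.64 to 3.03 and -1.33 to -0.76. Genes on X and Y were left out for that reason. The deposited array medians were 3.88 to 3.96 in control and 3.52 to 3.57 in NICD arrays, so each array's median was subtracted first. Between arrays of a group the median absolute difference over probe sets was 0.22 to 0.33 for control and 0.20 to 0.24 for NICD arrays.

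Notch receptors are activated by ligands of the Delta-like and Jagged families on a neighbouring cell. Cleavage then frees the intracellular domain, which joins the DNA-binding protein RBPJ and Mastermind coactivators and switches on repressors of the Hes and Hey families. In vessels the pathway is known for arterial specification and for restraining sprouting. NICD mice carry the freed domain itself, so that signalling no longer needs a ligand. The question here is how that state alters an inflamed vascular bed.

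Of 13462 probe sets kept, from 12852 genes, 3510 (26.1%) differed between NICD and control ears at a limma p-value of 0.05 adjusted over all of them. The split was uneven, 2554 higher (19%) and 956 lower (7.1%), and it changed with the scaling. After quantile normalization of the 10 arrays, 1345 were higher (9.99%) and 1283 lower (9.53%), and after cyclic loess 1444 and 1304. The share of higher calls was thus 72.8%, 51.2% and 52.5%. It was 12.7% on the deposited values, 93.6% with each array also divided by its median absolute deviation and 48.7% with ranks within arrays. With the medians subtracted, the median difference of all probe sets was still 0.10, and it ran from -0.15 for those below the array median to 0.33 for those at least 6 log2 units over it. After quantile normalization the median of all was -0.0024. In what follows "rose" and "fell" are kept for genes past the threshold in the same direction under median centring, quantile normalization and cyclic loess alike. These were 1307 probe sets higher (9.71%) and 793 lower (5.89%), or 15.6% of those tested, and over genes 9.77% and 5.8%. Among them 251 rose and 113 fell at least 2-fold. The groups shared no value in 2775 probe sets (20.6% of those tested). The background for the counts of list members below is the share over all genes, 9.77% higher and 5.8% lower. Leaving out 1 array at a time, the numbers that passed all 3 scalings lay between 772 and 1345 higher and between 460 and 782 lower. The lowest numbers came without NICD replicate 1 (816 higher and 534 lower), replicate 2 (840 and 510) or replicate 3 (772 and 460).

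**Figure D1:**
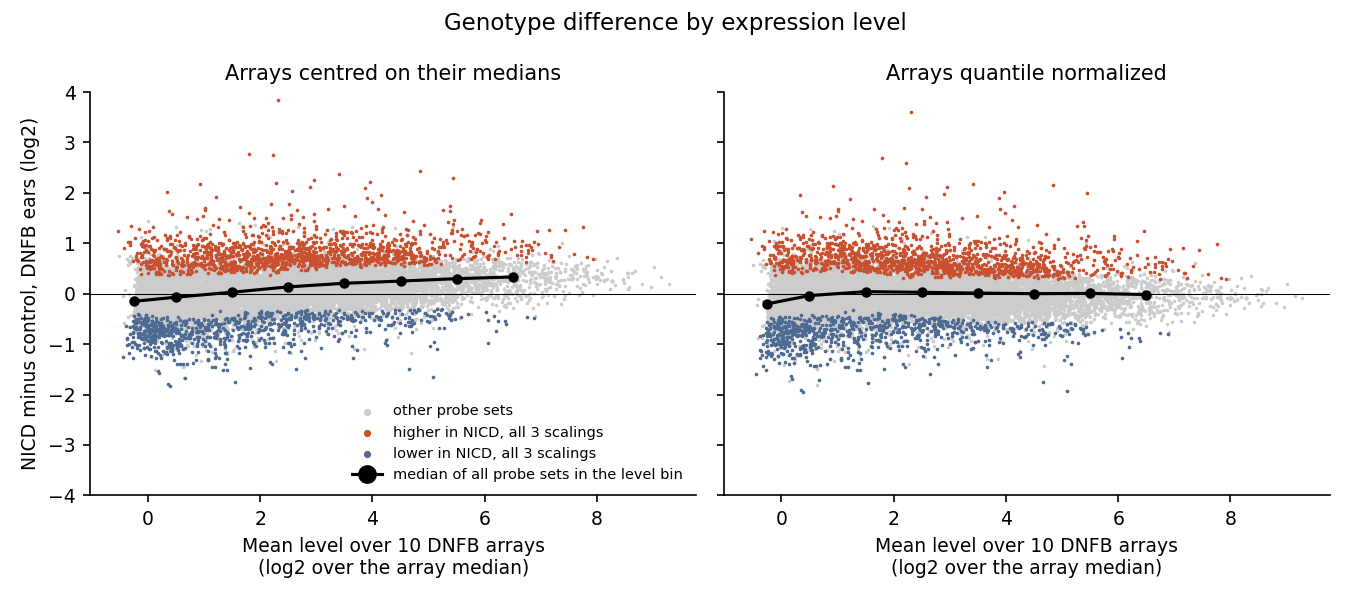
Difference between the 4 NICD and 6 control DNFB arrays (log2, vertical axis) against the mean level over the 10 arrays (log2 over the array median, horizontal axis), with one point per probe set and the median in each level bin as black dots, after median centring (left) and quantile normalization (right). The line of medians climbs from -0.15 to 0.33 on the left and stays near 0 on the right apart from the lowest bin at -0.20, while the probe sets that passed under all 3 scalings (orange higher, blue lower) lie outside the central band on both sides.

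Notch1 itself was measured first, as a check of the genotype. Its levels were 5.89, 5.95, 5.91, 5.76, 5.64 and 5.89 in the control arrays and 6.27, 6.19, 6.08 and 6.30 in the NICD arrays. All NICD values lay above all control values, with a difference of 0.37 ± 0.10 (SE; limma adjusted p = 0.0221). After quantile normalization it was 0.036 (adjusted p = 0.85), on the deposited values -7.5e-06, and without NICD replicate 1 the centred difference of 0.35 did not pass (adjusted p = 0.063), nor did 0.38 without replicate 2 (0.052) or 0.34 without replicate 4 (0.057). Which part of the transcript its probes cover is not given in the sources used here, so the value does not check the transgene.

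Notch pathway genes changed in both directions. Of 43 measured members of 46 listed, 8 rose (Hey1, Efnb2, Notch4, Itch, Maml2, Adam17, Nrarp and Dtx3), 3 fell (Notch2, Dll1 and Hes1) and 32 did not pass all 3 scalings. The background over all genes is 9.77% higher and 5.8% lower. The list's median difference was 0.30 after centring and 0.063 after quantile normalization, beside 0.10 and -0.0024 over all probe sets. Relative to the mean of 24 general endothelial genes on the same array the list's mean was lower in NICD arrays. After centring it lay at -2.47 to -2.21 against -2.14 to -1.83 in control arrays, with no overlap (a mean difference of -0.41). After quantile normalization the ranges overlapped, at -2.36 to -2.15 against -2.18 to -1.88 (a mean difference of -0.27). Without NICD replicate 2 only 5 rose. The 18 target genes, of which 4 rose and 1 fell, had a median of 0.51 (0.31 after quantile normalization).

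Of the receptors, Notch4, which is largely confined to endothelium, read 5.27, 5.08, 4.90 and 5.10 in NICD arrays and 3.82 to 4.44 (median 4.09) in control arrays, a rise of 0.99 ± 0.14 (limma adjusted p = 0.000978). Notch2, a receptor found in many tissues, went the other way. It read 4.19, 4.02, 3.88 and 4.03 in NICD and 4.44 to 4.98 (median 4.58) in control arrays and fell by 0.62 ± 0.13 (adjusted p = 0.00684). The groups overlapped for neither. Notch3, the receptor of pericytes and smooth muscle, did not pass (-0.17 ± 0.27, adjusted p = 0.681). Among the ligands Dll1 fell by 0.73 ± 0.14 (adjusted p = 0.00371), whereas Dll4, the main arterial and tip cell ligand, passed only after centring (0.68 ± 0.15, adjusted p = 0.00794; 0.34 and 0.179 after quantile normalization). Jag2 likewise passed only there (0.74 ± 0.22, adjusted p = 0.0277), and not without NICD replicate 1 (0.66), 2 (0.76) or 3 (0.77). Jag1 passed under none of the 3 scalings (0.32 ± 0.14, adjusted p = 0.113).

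Hey1, a transcriptional repressor that Notch induces directly, had the largest difference among the Notch genes. It read 6.39, 6.23, 6.04 and 6.09 in NICD arrays and 4.50 to 4.93 (median 4.72) in control arrays, 2.77-fold higher (1.47 ± 0.12 on the log2 scale, limma adjusted p = 8.62e-05; 1.14 after quantile normalization). The lowest NICD array stood more than 1 log2 unit above the highest control array. Efnb2, which encodes the arterial surface ligand ephrin-B2, read 6.28, 5.96, 6.10 and 6.12 against 4.58 to 5.04 (median 4.99) and rose by 1.23 ± 0.13 (adjusted p = 0.000312). Nrarp, a feedback inhibitor that the pathway induces, read 3.11, 2.87, 3.04 and 2.97 against 2.19 to 2.45 (median 2.32) and rose by 0.66 ± 0.10 (adjusted p = 0.00119). No value was shared between the groups for these 3 genes. The sister repressors were less clear. Hey2 (0.57 ± 0.17, adjusted p = 0.031) and Heyl (0.82 ± 0.27, adjusted p = 0.0464) passed after centring but not after quantile normalization (adjusted p = 0.0959 and 0.0609). Left-out arrays ended the centred call of Hey2 in 4 and of Heyl in 9 of 10 fits.

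Hes1, a classical target of the pathway in many tissues, was lower. It read 2.57, 2.32, 2.29 and 2.74 in NICD arrays and 2.69 to 3.21 (median 2.97) in control arrays, where the highest NICD array just passed the lowest control array, and fell by 0.47 ± 0.13 (limma adjusted p = 0.0229). The call was lost without NICD replicate 2 (-0.42, adjusted p = 0.072) or replicate 3 (-0.41, adjusted p = 0.074). Rbpj, the DNA-binding partner of the freed domain, lay at 2.45 to 2.62 in NICD and 2.39 to 2.71 in control arrays (-0.0075 ± 0.10, adjusted p = 0.964). Of the proteins that act on the receptor or beside it, the sheddase Adam17 (by 0.67), the coactivator Maml2 (by 0.68) and the ubiquitin ligases Itch (by 0.69) and Dtx3 (by 0.52) rose. Dtx3 did not pass without NICD replicate 2 (0.45, adjusted p = 0.060) or replicate 4 (0.47, adjusted p = 0.050). The falls of Notch2, Dll1 and Hes1 turned to rises in only 1 alternative, in which each array was divided by its median absolute deviation. That setting moved the median of all probe sets to 0.79, and all 3 genes stayed below it (0.70, 0.11 and 0.34).

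**Figure D2:**
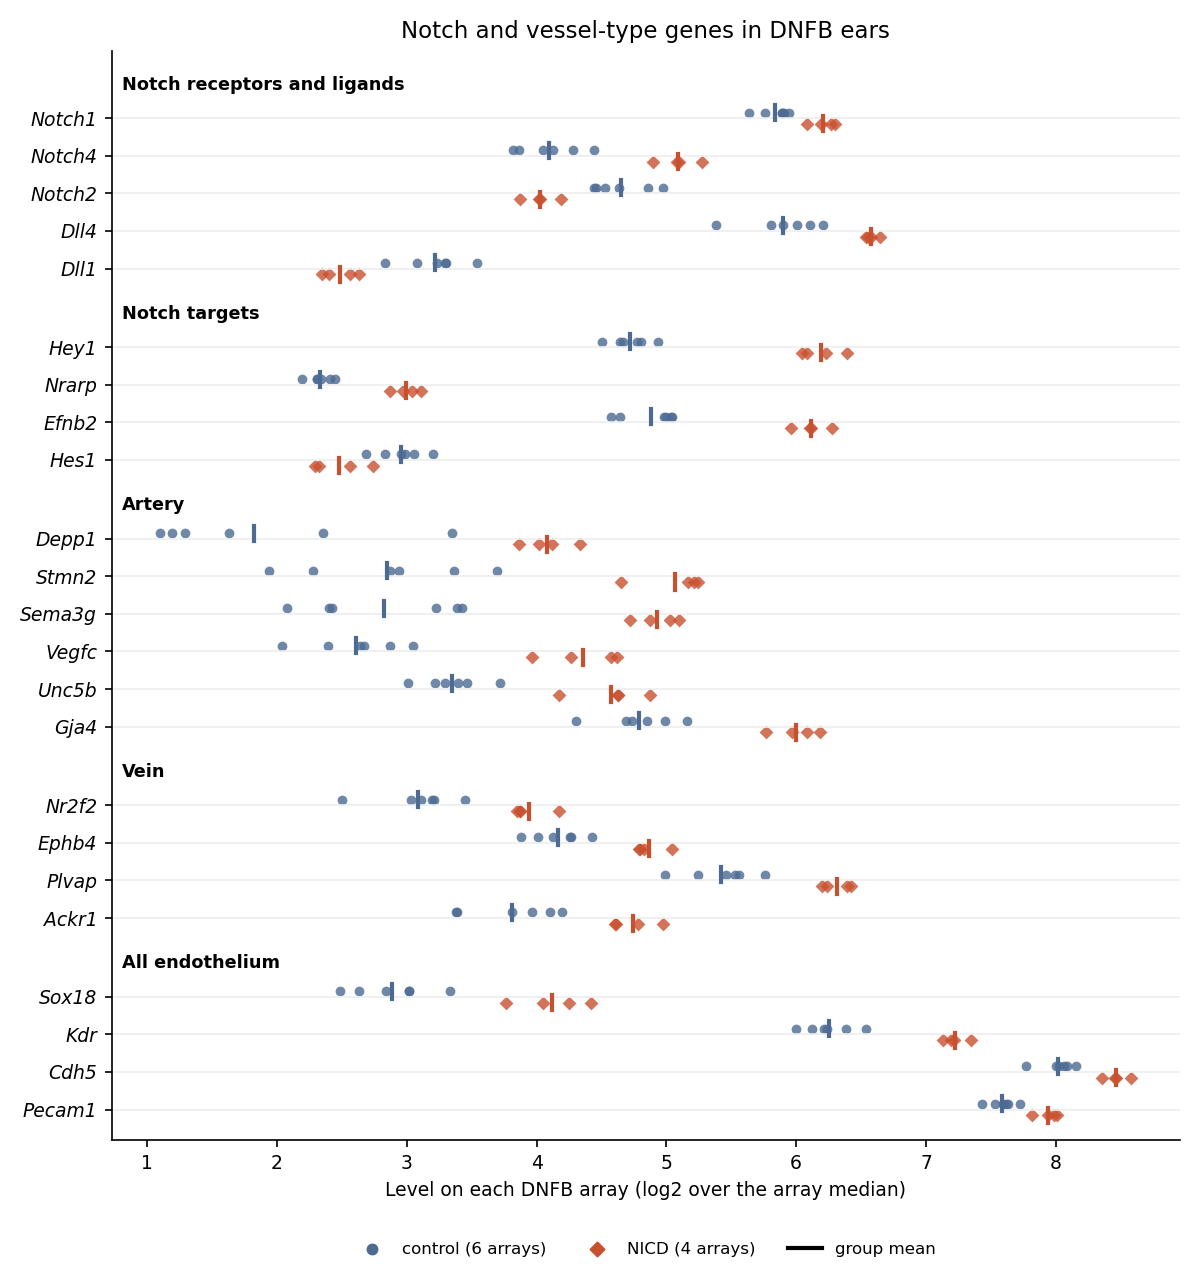
Level on each DNFB array (log2 over the array median) of Notch receptors, ligands and targets and of artery, vein and general endothelial genes, with 6 control arrays as blue circles, 4 NICD arrays as orange diamonds and group means as vertical bars. Hey1, Efnb2 and the artery genes separate the groups widely, Hes1 and Notch2 lie lower in NICD arrays, and Cdh5 and Pecam1 differ by 0.45 and 0.35 (0.12 and -0.065 after quantile normalization).

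The gene with the largest rise was H2-Q5, an MHC class I gene, with a difference of 3.84 ± 0.94 (limma adjusted p = 0.012), followed by Npr3 and H2-T23. Npr3 encodes the receptor that clears natriuretic peptides. Its levels were 3.25, 3.25, 3.32 and 2.93 in NICD and -0.27 to 0.79 (median 0.59) in control arrays, 6.82-fold higher (2.77 ± 0.19, adjusted p = 3.16e-05), and the control arrays sat near the array median. Rbp7, a retinol-binding protein of capillary and adipose endothelium, read 4.74, 4.83, 4.43 and 4.36 against 1.38 to 2.77 (median 2.35) (2.37 ± 0.27, adjusted p = 0.000388). Hebp1, a heme-binding protein, read 1.67, 2.03, 2.41 and 1.93 against -0.27 to -0.067 (median -0.16) (2.17 ± 0.14, adjusted p = 1.63e-05). It was under the array median on every control array, so it passed the filter on low values through its NICD arrays alone. Groups without overlap and a NICD mean at least 1 log2 unit over the array median were conditions of being named among the largest rises. Dad1, a subunit of the oligosaccharyltransferase found in all cells, read 6.57, 6.66, 6.57 and 6.55 against 4.08 to 4.62 (median 4.20) (2.30 ± 0.12, adjusted p = 6.19e-06), with a very small spread in both groups. The other 7 of the 12 largest rises were Depp1, Stmn2 and Sema3g, described with the artery genes, and the MHC class II genes H2-Ab1, H2-Aa and H2-DMa along with H2-T23.

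The falls were smaller. Arap2, which switches off the small GTPase Arf6, read -0.24, -0.48, -0.88 and -0.50 in NICD and 0.95 to 1.53 (median 1.34) in control arrays and fell by 1.83 ± 0.15 (limma adjusted p = 8.62e-05), 3.56-fold lower. Trp53i11, a gene induced by p53, was abundant in both groups, at 4.35, 4.05, 4.31 and 4.30 against 5.07 to 6.81 (median 5.86), and fell by 1.66 ± 0.29 (adjusted p = 0.00267). Lipg, the endothelial lipase, read 0.39, 1.02, -0.012 and 1.21 against 1.63 to 2.45 (median 2.17) and fell 2.84-fold (adjusted p = 0.00159). Several others of the 12 act in the extracellular space. Has2, the hyaluronan synthase, read 1.46, 1.57, 1.18 and 1.78 against 2.39 to 3.28 (median 2.81) and fell by 1.36 ± 0.19 (adjusted p = 0.000869). Adamts8, a secreted protease, fell by 1.46 ± 0.19 (adjusted p = 0.000622), and Prg4, the lubricating proteoglycan of joints, 2.83-fold (adjusted p = 0.0137). The groups did not overlap in any of these 6 genes, which the rule that picked the 12 largest falls required. The remaining 6 were the transglutaminase Tgm3 of keratinising epithelium, which fell by 1.76 ± 0.38, the leukocyte and platelet receptor Cd226 by 1.51 ± 0.33, the monooxygenase Fmo2 by 1.47 ± 0.29, the hexokinase Hk2 by 1.45 ± 0.25, the cytokine receptor Cntfr by 1.40 ± 0.24 and Cyp2d40, a cytochrome P450, by 1.38 ± 0.20 (adjusted p from 0.0011 to 0.00696). Tgm3 and Cd226 are known from other cells than endothelium, and whether such cells differed in number was not tested.

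Artery genes rose without a fall. Of 28 measured genes of the 30 listed, 12 rose, 0 fell and 16 did not pass all 3 scalings, with a median difference of 0.66 (0.49 after quantile normalization). The number that rose stayed at 11 to 14 in the fits that left out 1 array, and 1 member fell without control replicate 2 or NICD replicate 4. By quantile normalization alone 2 members were lower. Stmn2, a microtubule regulator best known from neurons, read 5.17, 5.25, 5.21 and 4.65 in NICD and 1.94 to 3.70 (median 2.90) in control arrays (2.22 ± 0.30, limma adjusted p = 0.000791). Depp1, a gene under control of FOXO factors, read 3.87, 4.34, 4.02 and 4.12 against 1.63, 3.35, 2.36, 1.10, 1.29 and 1.19 in the 6 control arrays, where replicate 2 was the highest and still under every NICD array (2.26 ± 0.39, adjusted p = 0.00222).

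The guidance ligand Sema3g read 4.87, 5.03, 4.72 and 5.10 against 2.08 to 3.42 (median 2.82) (2.10 ± 0.27, limma adjusted p = 0.000581). Vegfc, the lymphatic growth factor, which arteries also make, read 4.62, 4.58, 4.26 and 3.97 against 2.04 to 3.05 (median 2.66) and rose 3.36-fold (1.75 ± 0.20, adjusted p = 0.000391). Gja4, an arterial gap junction protein, read 6.08, 6.19, 5.97 and 5.77 against 4.30 to 5.16 (median 4.79) (1.21 ± 0.16, adjusted p = 0.000707). In all 5 genes every NICD array lay above every control array. For Stmn2, Depp1 and Sema3g that was a condition of being named among the largest rises. The netrin receptor Unc5b rose by 1.23 ± 0.16, the elastic fibre genes Eln by 1.12 ± 0.23 and Fbln5 by 0.98 ± 0.20 and the coreceptor Nrp1 by 0.78 ± 0.12 (adjusted p from 0.000705 to 0.00518). Gja5, another gap junction protein and a classical arterial marker, did not pass (0.64 ± 0.23, adjusted p = 0.0582), though it did without control replicate 6 or NICD replicate 4.

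Vein and general endothelial genes rose in the same arrays. Of 17 venous genes 6 rose and 0 fell (median 0.67, and 0.42 after quantile normalization). Nr2f2, the transcription factor COUP-TFII that specifies veins, read 3.85, 3.87, 4.18 and 3.88 against 2.50 to 3.45 (median 3.15) (0.86 ± 0.17, limma adjusted p = 0.00408), and Ephb4, the venous receptor of ephrin-B2, rose by 0.70 ± 0.12 (adjusted p = 0.00272). The diaphragm protein Plvap rose by 0.89 ± 0.15 and the decoy chemokine receptor Ackr1 of venules by 0.94 ± 0.18. No value was shared between the groups in these 4. The venous count was 2 without NICD replicate 2 or 3, the lowest of the fits that left out 1 array. Of 24 genes of endothelium at large 11 rose and 0 fell (median 0.68, and 0.39 after quantile normalization), 6 of them without NICD replicate 1 or 3. Examples are Sox18 (by 1.23 ± 0.18), the sphingosine receptor S1pr1 (by 1.10 ± 0.15) and the VEGF receptors Kdr (by 0.97 ± 0.12) and Flt1 (by 0.94 ± 0.12), all with adjusted p of 0.00104 or less. The mean level of these 24 genes was 4.94 to 5.36 on control and 5.68 to 5.95 on NICD arrays, with no overlap, and 8.85 to 9.27 against 9.31 to 9.50 after quantile normalization. More endothelial cells in the sorted sample and more of these RNAs per cell cannot be told apart in such pools.

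Set against that general endothelial mean within each array, the artery list no longer separated the groups. Its mean minus the endothelial mean lay at -1.47 to -1.18 on control arrays and at -1.33 to -1.11 on NICD arrays, a mean difference of 0.12 (0.18 after quantile normalization). The venous list differed by -0.044 and the capillary list by -0.27 on the same footing. Of 25 capillary genes 5 rose (Npr3, Rbp7, Kdr, Meox1 and Cxcl12) and 1 fell (Fmo2), with 3 rises without NICD replicate 1. Of 26 junction genes 4 rose and 0 fell, among them Jam2 by 1.44 ± 0.20 (limma adjusted p = 0.000869).

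Lymphatic markers rose too. Of 11 measured, 5 rose, 0 fell and 6 did not pass, and 1 fell without control replicate 2. Their mean level was 2.95 to 3.32 on control and 3.63 to 4.29 on NICD arrays. The hyaluronan receptor Lyve1 read 7.47, 6.61, 7.08 and 6.94 in NICD and 5.25 to 5.99 (median 5.67) in control arrays (1.38 ± 0.20, limma adjusted p = 0.000956), and Flt4, the receptor of VEGF-C, read 5.44, 4.54, 4.80 and 4.52 against 3.39 to 3.66 (median 3.54) (1.29 ± 0.17, adjusted p = 0.000644). Replicate 1 was the highest NICD array in both. Mmrn1 (by 1.65 ± 0.21), Reln (by 1.25 ± 0.24) and Sema3d (by 0.92 ± 0.17) also rose. Prox1, the defining transcription factor of lymphatic endothelium, was 1.91 to 3.06 in NICD and 1.41 to 2.19 in control arrays and did not pass with all arrays (0.59 ± 0.23, adjusted p = 0.0845), but did without NICD replicate 2. The share of lymphatic cells in the sort was not tested.

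Of the molecules that slow or stop leukocytes at the vessel wall, few passed all 3 scalings. Of 26 adhesion genes 4 rose (Jam2, Sele, Cd9 and St3gal4) and 1 fell (Glycam1), beside 9.77% and 5.8% over all genes. By median centring on its own 17 were higher, where 19% of all probe sets were. The list's median difference was 0.55, and 0.21 after quantile normalization. Without control replicate 6, 7 rose. Sele, or E-selectin, on which neutrophils and skin-homing T cells roll, read 7.63, 7.74, 7.51 and 7.31 in NICD and 5.69 to 6.65 (median 6.37) in control arrays (1.24 ± 0.18, limma adjusted p = 0.00104; 0.88 after quantile normalization). St3gal4, a sialyltransferase that helps build selectin ligands, rose by 0.88 ± 0.14 and the tetraspanin Cd9 by 0.94 ± 0.12 (adjusted p = 0.00153 and 0.000574). Glycam1, a mucin known from the high endothelial venules of lymph nodes, was low in both groups and fell by 0.78 ± 0.15 (adjusted p = 0.0041). Selp (0.67 ± 0.11), Icam1 (0.54 ± 0.13) and Vcam1 (1.19 ± 0.37) passed after median centring (adjusted p = 0.00146, 0.0129 and 0.037) but not under all 3 scalings. For Vcam1 the groups overlapped, since control replicate 6 at 3.37 lay above the lower NICD arrays, and the call was lost in 6 of the 10 fits that left out 1 array (highest adjusted p = 0.104, without NICD replicate 3).

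Chemokines and cytokines moved both ways. Of 43 measured members of the 56 listed, 9 rose, 8 fell and 26 did not pass all 3 scalings, with a median of -0.021 (-0.11 after quantile normalization). Over all genes 9.77% rose and 5.8% fell. The members that fell include the neutrophil-directed CXC chemokines Cxcl1 and Cxcl5 and the granulocyte growth factor Csf3. Cxcl1 read 4.29, 4.49, 4.25 and 5.00 in NICD and 5.35 to 5.83 (median 5.53) in control arrays and fell by 1.04 ± 0.16 (limma adjusted p = 0.0012), or 2.06-fold. Cxcl5 read 3.01, 3.30, 3.23 and 3.14 against 3.49 to 5.01 (median 4.36) and fell by 1.12 ± 0.23 (adjusted p = 0.00565). For both, the highest NICD array lay below the lowest control array. The related Cxcl2 (-0.28, adjusted p = 0.44) and Cxcl3 (-0.35, adjusted p = 0.287) did not pass. Csf3 read 4.37, 4.38, 4.51 and 4.04 against 4.54 to 5.48 (median 4.96) and fell by 0.65 ± 0.20 (adjusted p = 0.0371), a call lost in 7 of the 10 fits that left out 1 array (highest adjusted p = 0.098, -0.56 without NICD replicate 4). The falls of Cxcl1 and Csf3 turned to 0.46 and 0.76 under division by the median absolute deviation, under the median of all at 0.79.

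The other falls were of Il11 and Lif, both cytokines that signal through gp130, and of the CC chemokines Ccl11, Ccl20 and Ccl24. Il11 read 2.46, 1.57, 2.39 and 2.18 in NICD and 2.85 to 3.57 (median 3.34) in control arrays and fell by 1.15 ± 0.19 (limma adjusted p = 0.00202). Ccl11, or eotaxin, fell by 0.90 ± 0.20, and 1 NICD array, replicate 3, lay just over the lowest control array. Ccl20, which draws CCR6-bearing cells, read 0.38, 0.53, 0.69 and 0.83 against 1.06 to 2.52 (median 1.65) and fell by 1.18 ± 0.25. Ccl24 was near or below the array median in most arrays and fell by 1.09 ± 0.24, and Lif by 0.70 ± 0.17 (adjusted p from 0.00667 to 0.0129 for these 4). Neutrophil marker genes, given for comparison, had a mean level of 0.97 to 1.94 on control and 1.63 to 1.84 on NICD arrays. The fibroblast mean was 2.35 to 3.21 on control and 1.81 to 2.68 on NICD arrays, and the keratinocyte mean 2.71 to 4.60 and 3.29 to 3.81. The part of such cells in these falls was not tested.

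The 9 rises were of 3 chemokines, 3 cytokines and 3 decoy receptors. Il15, which sustains NK cells and memory T cells, read 2.70, 2.89, 2.64 and 2.46 in NICD and 0.51 to 1.85 (median 1.42) in control arrays (1.32 ± 0.22, limma adjusted p = 0.00211). Tnfsf10, the death ligand TRAIL, read 3.69, 3.31, 3.18 and 3.11 against 0.56 to 2.66 (median 1.91) (1.56 ± 0.32, adjusted p = 0.0054). Cx3cl1, the membrane-bound chemokine fractalkine, read 3.43, 3.16, 2.99 and 3.31 against 1.99 to 2.68 (median 2.28) (0.90 ± 0.16, adjusted p = 0.00237). None of the 3 had overlapping groups. Il7 rose by 0.72 ± 0.15 from near the array median, Ccl27a by 1.10 ± 0.18 and Cxcl12 by 0.64 ± 0.12. Of 5 decoy receptors, which bind chemokines without signalling for migration, 3 rose. Ackr2, found on lymphatic endothelium and a scavenger of CC chemokines, read 5.45, 4.37, 5.31 and 4.65 against 2.62 to 3.76 (median 3.29) (1.69 ± 0.25, adjusted p = 0.00121), while Ackr1 rose by 0.94 and Ackr3 by 0.77.

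**Figure D3:**
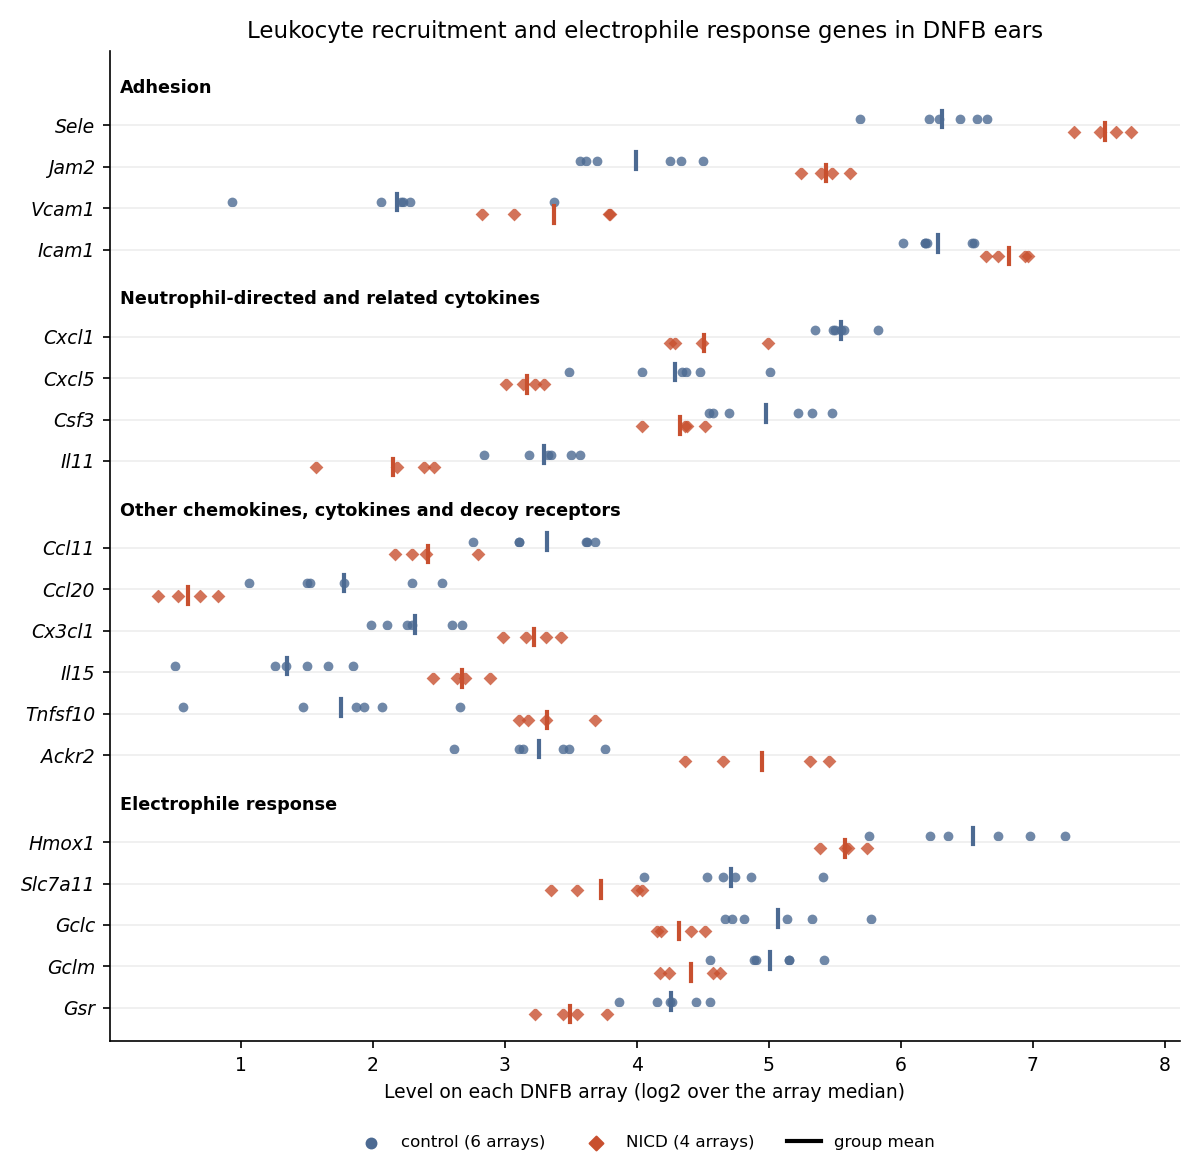
Level on each DNFB array (log2 over the array median) of adhesion molecules, cytokines, a decoy receptor and electrophile response genes, with 6 control arrays as blue circles, 4 NICD arrays as orange diamonds and group means as vertical bars. Sele, Jam2, Il15 and Ackr2 lie higher on all NICD arrays, Cxcl1, Cxcl5 and Il11 lie lower on all of them, and Vcam1 overlaps.

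Sele and Cxcl1 are both textbook targets of NF-kB, the transcription factor of the early inflammatory response, and moved in opposite directions here. Their promoters are shown for that reason, as the 250 bases before the transcription start in RefSeq (GRCm38.p6, 5′ to 3′ on the gene's strand), Sele from chr1:164047984-164048233 and Cxcl1 from chr5:90890995-90891244, both on the plus strand. Capitals mark matches, on either strand, of a short form of the NF-kB motif, GGG and TCC with any 4 bases between them.
Sele: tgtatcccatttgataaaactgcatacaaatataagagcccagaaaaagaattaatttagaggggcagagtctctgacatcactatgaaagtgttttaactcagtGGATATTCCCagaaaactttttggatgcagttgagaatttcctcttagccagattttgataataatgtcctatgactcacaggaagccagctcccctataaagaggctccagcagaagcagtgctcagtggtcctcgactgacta
Cxcl1: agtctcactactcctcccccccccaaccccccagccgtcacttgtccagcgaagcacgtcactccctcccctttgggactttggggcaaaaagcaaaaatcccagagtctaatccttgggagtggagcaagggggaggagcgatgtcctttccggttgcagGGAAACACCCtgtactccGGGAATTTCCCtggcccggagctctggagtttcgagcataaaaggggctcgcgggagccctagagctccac
One match was found in Sele, 145 to 136 bases before the start. In Cxcl1 there were 3, of which 2 overlap each other (71 to 62 and 70 to 61 bases before the start). The motif is loose. It is in 16.5% of all 32851 RefSeq windows of that length, and 24.1% of the 10028 measured genes with a window hold a match, as do 26.2% of those that rose and 24.1% of those that fell. Of 25 genes of the NF-kB pathway itself 0 rose and 2 fell under all 3 scalings, the kinase Ikbke by 0.84 ± 0.12 (limma adjusted p = 0.000843) and the atypical inhibitor Nfkbiz by 0.33 ± 0.11 (adjusted p = 0.0496, and lost in 9 of the 10 fits that left out 1 array, with -0.26 and 0.148 at the weakest, without NICD replicate 3). On median centring 1 and 2 members passed, and by quantile normalization 0 and 5.

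Some genes of the interferon response were higher in NICD endothelium. Of 51 measured members of the 61 listed, 11 rose, 2 fell (Jak2 and Ifitm1) and 38 did not pass all 3 scalings. Over all genes 9.77% rose and 5.8% fell. The list's median was 0.52 (0.31 after quantile normalization). Control arrays differed among themselves here. The list's mean ran from 3.79 to 4.56 on control arrays and from 4.62 to 4.79 on NICD arrays, and after quantile normalization the ranges overlapped (7.69 to 8.38 and 8.27 to 8.42). The number that rose was 17 without control replicate 6 and 5 without NICD replicate 1, 2 or 3. Relative to the endothelial mean within each array the list differed by -0.15.

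Isg15, a ubiquitin-like protein, had the largest rise of the list. It read 6.20, 6.23, 6.26 and 6.14 in NICD and 3.72 to 5.31 (median 4.63) in control arrays (1.65 ± 0.27, limma adjusted p = 0.00172), with NICD arrays close together. Tlr3, a sensor of double-stranded RNA in endosomes, read 5.38, 5.30, 5.37 and 4.96 against 3.81 to 4.28 (median 3.93) (1.26 ± 0.14, adjusted p = 0.000312). Bst2, or tetherin, which holds budding viruses at the cell surface, read 7.79, 7.87, 7.85 and 7.62 against 5.76 to 7.05 (median 6.63) (1.26 ± 0.21, adjusted p = 0.00196). The groups did not overlap in any of the 3. Ifit2 rose by 1.27 ± 0.23, the transcription factor Irf7 by 1.08 ± 0.22, the guanylate-binding proteins Gbp5 and Gbp7 by 1.04 ± 0.21 and 1.02 ± 0.20, the kinase Eif2ak2 by 0.93 ± 0.22, the receptor chain Ifngr2 by 0.84 ± 0.11 and the RNA sensor Ifih1 by 0.78 ± 0.17 (adjusted p from 0.000727 to 0.0108). Ifit1 rose by 1.21 ± 0.31 (adjusted p = 0.0162) and did not pass without NICD replicate 1 (1.13, adjusted p = 0.052) or replicate 3 (1.06, adjusted p = 0.055). Ifitm1 fell by 0.91 ± 0.22 (adjusted p = 0.0122). Jak2 fell by 0.33 ± 0.11 (adjusted p = 0.0484) and lost the call in 9 of the 10 fits that left out 1 array, with -0.30 and 0.121 at the weakest, without NICD replicate 3. Only 1 of these 2 falls or none was counted in 9 of the 10 such fits.

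Of the 11 members that rose, 5 hold the interferon-stimulated response element within 250 bases before their start in RefSeq. Its short form is GAAA and again GAAA with any 2 bases between them. It is in 2.98% of all 32851 windows of that length and 3.19% of the 10028 measured genes with a window. The list was chosen as interferon response genes, so a high share may come from the list itself and does not bear on which members rose. The share among the 38 that did not pass was not counted. Of 8 antigen presentation genes that rose and have a window, 1 holds the element. The sequences of Isg15 (chr4:156200819-156201068, minus strand), Ifit1 (chr19:34640639-34640888, plus strand) and Bst2 (chr8:71537473-71537722, minus strand) show how the element repeats (GRCm38.p6, 5′ to 3′ on the gene's strand, with capitals for matches on either strand).
Isg15: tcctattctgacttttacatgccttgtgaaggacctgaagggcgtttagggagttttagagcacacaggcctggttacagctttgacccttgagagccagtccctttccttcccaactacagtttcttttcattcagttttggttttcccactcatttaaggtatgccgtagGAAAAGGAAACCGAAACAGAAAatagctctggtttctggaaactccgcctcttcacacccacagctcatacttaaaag
Ifit1: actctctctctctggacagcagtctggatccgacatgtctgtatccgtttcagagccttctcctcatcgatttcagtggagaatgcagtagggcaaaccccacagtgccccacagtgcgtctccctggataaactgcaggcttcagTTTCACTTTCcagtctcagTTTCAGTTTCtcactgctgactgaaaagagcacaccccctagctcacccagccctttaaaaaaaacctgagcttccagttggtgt
Bst2: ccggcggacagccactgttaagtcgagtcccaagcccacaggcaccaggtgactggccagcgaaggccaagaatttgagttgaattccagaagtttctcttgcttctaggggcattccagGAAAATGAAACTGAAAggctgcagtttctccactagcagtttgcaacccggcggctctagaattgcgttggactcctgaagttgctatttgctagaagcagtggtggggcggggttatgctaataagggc
Isg15 has 3 overlapping matches between 78 and 57 bases before its start, Bst2 has 2 overlapping ones between 130 and 115, and Ifit1 has 2 separate ones in the opposite orientation, at 104 to 95 and 85 to 76. Over all genes that rose 4.64% hold the element and over all that fell 2.08%.

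Antigen presentation genes rose where they passed. Of 23 measured members of the 30 listed, 10 rose, 0 fell and 13 did not pass all 3 scalings, with a median of 0.75 (0.44 after quantile normalization). The class II chains and the peptide loader H2-DMa accounted for 4 of the 6 class II genes measured. H2-Ab1 read 5.86, 6.50, 6.42 and 5.46 in NICD arrays and 3.93, 3.20, 1.52, 4.04, 4.33 and 4.78 in control arrays (2.43 ± 0.52, limma adjusted p = 0.00669). H2-Aa read 3.25, 3.57, 3.61 and 3.08 against 0.077 to 1.76 (median 1.39) (2.20 ± 0.29, adjusted p = 0.000707). H2-DMa read 3.19, 4.04, 4.02 and 3.11 against 0.58 to 2.36 (median 1.68) (2.03 ± 0.35, adjusted p = 0.00222). Control replicate 3 was the lowest array for H2-Ab1 and H2-Aa. The groups did not overlap in the 3 genes, which the rule for the 12 largest rises required. H2-Eb1 rose by 1.79 ± 0.42 with overlapping groups. Class II is known from dendritic cells and macrophages. Of 6 measured dendritic and Langerhans markers the 2 that rose were H2-Ab1 and H2-Eb1 themselves. The mean of all 10 dendritic markers, these included, was 0.80 to 1.30 on control and 1.26 to 1.56 on NICD arrays, the macrophage mean 0.62 to 1.51 and 0.81 to 1.39 with 0 of 12 past the threshold after centring or quantile normalization, and the part of such cells in the class II values was not tested.

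The class I genes at the top of the comparison split the control arrays. H2-Q5 read 0.016, -1.94, -1.61, 2.63, -0.10 and 3.39 in control replicates 1 to 6 and 3.93, 4.59, 4.67 and 3.75 in NICD arrays. H2-T23, which encodes Qa-1, read -0.039, 0.0085, -0.66, 2.60, 0.57 and 2.66 and 3.59, 3.57, 4.00 and 3.25. Control replicates 4 and 6 were far above the other 4 in both genes and still under every NICD array. That separation was a condition of being named among the largest rises. H2-T23 rose by 2.75 ± 0.62 (limma adjusted p = 0.00823). A second probe set of H2-Q5 rose by 1.07 (adjusted p = 0.0169). Class I genes of this kind are near-identical copies of each other, so which copy a probe set reads is uncertain. The shared peptide machinery moved less. The transporter Tap1 read 7.57, 7.45, 7.54 and 7.23 against 5.68 to 6.90 (median 6.50) (0.99 ± 0.20, adjusted p = 0.00523), Tap2 rose by 0.82 ± 0.16, the class I gene H2-Q4 by 1.16 ± 0.27 with overlapping groups (another of its probe sets was at -0.33 and did not pass), the immunoproteasome subunit Psmb8 by 1.04 ± 0.23 and its activator Psme1 by 0.91 ± 0.18. The count of 10 fell to 5 without NICD replicate 2 or 3.

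**Figure D4:**
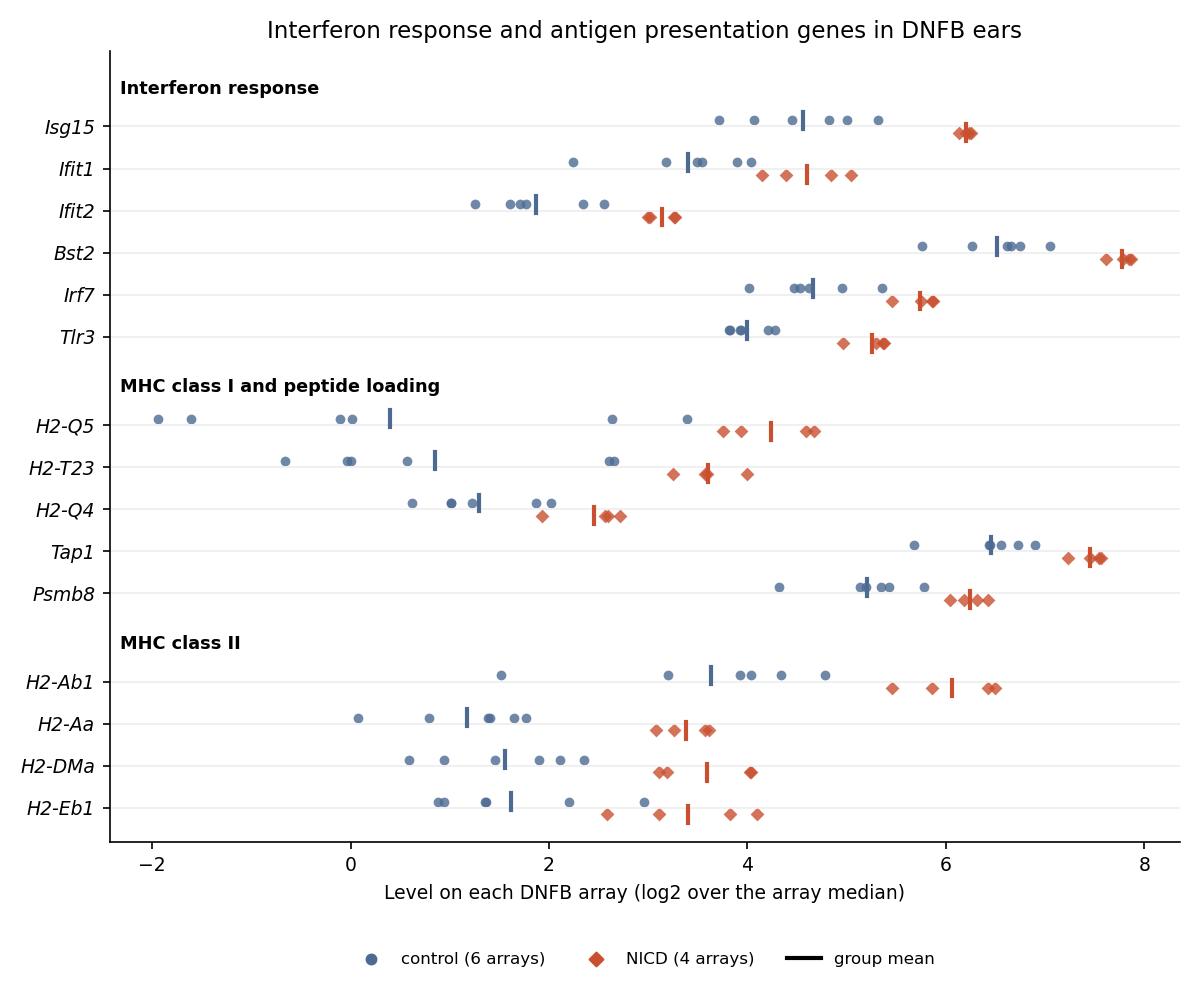
Level on each DNFB array (log2 over the array median) of interferon response and MHC genes, with 6 control arrays as blue circles, 4 NICD arrays as orange diamonds and group means as vertical bars. NICD arrays cluster closely for Isg15 and Bst2, and for H2-Q5 and H2-T23 control arrays form a lower set of 4 and a higher set of 2.

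Genes of the electrophile response fell where they passed, with 1 exception. These genes are switched on by the transcription factor NRF2 when cells meet reactive compounds, DNFB among them. Of 25 measured members of the 30 listed, 9 fell, 1 rose (the microsomal transferase Mgst1, by 0.84 ± 0.18) and 15 did not pass, against a background of 5.8% lower. The median was -0.24 (-0.49 after quantile normalization). The count of falls lay between 6 and 10 in the fits that left out 1 array, and without NICD replicate 3 the rise of Mgst1 was not counted. When each array was divided by its median absolute deviation, which moved all probe sets up by 0.79 in the median, the direction turned and 19 members were higher and 2 lower. Relative to the endothelial mean within the array the list lay at -1.42 to -0.69 on control and -2.13 to -1.77 on NICD arrays, with no overlap. Fibroblasts and keratinocytes, which also use this programme, had marker means of 2.35 to 3.21 and 2.71 to 4.60 on control and 1.81 to 2.68 and 3.29 to 3.81 on NICD arrays, and their part was not tested.

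Hmox1, the heme oxygenase, read 5.60, 5.58, 5.39 and 5.74 in NICD and 5.76 to 7.24 (median 6.55) in control arrays and fell by 0.97 ± 0.25 (limma adjusted p = 0.0149). Slc7a11, the cystine carrier that feeds glutathione synthesis, read 4.04, 3.55, 3.35 and 4.00 against 4.06 to 5.41 (median 4.70) and fell by 0.98 ± 0.23 (adjusted p = 0.0108). Gsr, the glutathione reductase, read 3.55, 3.23, 3.44 and 3.78 against 3.86 to 4.55 (median 4.26) and fell by 0.76 ± 0.15 (adjusted p = 0.0048). In each of these the highest NICD array came close to the lowest control array, replicate 6, without reaching it. The 2 subunits of the enzyme that makes the glutathione precursor also fell, Gclc by 0.76 ± 0.21 (adjusted p = 0.021) and Gclm by 0.60 ± 0.17 (adjusted p = 0.0222). Gclc did not pass without NICD replicate 1 (-0.70, adjusted p = 0.064) or 2 (-0.71, 0.059), nor Gclm without NICD replicate 2 (-0.55, 0.067) or 3 (-0.53, 0.071). The glutathione transferases Gstp1, Gsta3 and Gstm1 fell by 1.03 ± 0.22, 0.95 ± 0.18 and 0.85 ± 0.15 (adjusted p from 0.00261 to 0.00621). Srxn1, which repairs peroxiredoxins, fell by 0.46 ± 0.15 and lost the call in 8 of the 10 fits that left out 1 array, with -0.42 and 0.110 at the weakest, without NICD replicate 2.

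Genes that start clotting at the vessel wall and remodel matrix changed in part. F3, or tissue factor, the trigger of coagulation, read 2.64, 2.30, 2.71 and 2.57 in NICD and 3.11 to 4.06 (median 3.72) in control arrays and fell by 1.07 ± 0.18 (limma adjusted p = 0.002). Procr, a receptor of protein C, which acts against clotting, fell too, by 0.61 ± 0.13 (adjusted p = 0.00542). The plasminogen activator inhibitor Serpinb2 fell by 1.03 ± 0.29 (adjusted p = 0.0236, lost without NICD replicate 1 at -0.99 and 0.064 or replicate 3 at -0.82 and 0.078), while Plat, the tissue plasminogen activator, rose by 0.72 ± 0.14 (adjusted p = 0.00476). The endothelin receptor Ednrb read 5.95, 5.73, 5.64 and 6.01 against 6.16 to 6.86 (median 6.66) and fell by 0.73 ± 0.15 (adjusted p = 0.00572). With Npr3 these make 2 that rose and 4 that fell of 36 clotting and vessel tone genes, beside 9.77% and 5.8% over all genes. Without NICD replicate 1, 2 or 4 only 1 rose.

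Of 61 matrix genes 11 rose and 3 fell, and 6 rose without NICD replicate 1, 2 or 3. Col18a1, the basement membrane collagen that yields endostatin, read 5.27, 5.00, 4.64 and 4.65 against 2.56 to 3.43 (median 3.16), with more than 1 log2 unit between the groups (1.82 ± 0.20, limma adjusted p = 0.000346). Mmp14, a membrane-bound protease, rose by 0.85 ± 0.16 (adjusted p = 0.00305). Mmp3, or stromelysin, read 3.80, 4.62, 3.69 and 3.53 against 4.55 to 6.01 (median 5.65) and fell by 1.49 ± 0.32 (adjusted p = 0.00707), with 1 NICD array, replicate 2, inside the control range. Mmp2 fell by 0.75 ± 0.25 (adjusted p = 0.045) and lost the call in 8 of the 10 fits that left out 1 array, with -0.55 and 0.137 at the weakest, without NICD replicate 3. Of 39 genes of TGF-beta and BMP signals 3 rose and 3 fell, beside 9.77% and 5.8% over all genes. The type I receptor Bmpr1a was down by 1.05 ± 0.17 and the decoy receptor Bambi up by 0.98 ± 0.20 (limma adjusted p = 0.00152 and 0.00556). Of 18 genes of endothelial-to-mesenchymal transition Vim rose and Twist1 and Pdgfra fell, and of 14 complement genes the inhibitor Serping1 rose.

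Of 28 genes of glycolysis and the hypoxia response 3 fell and 1 rose, the rise being lost without NICD replicate 2, 3 or 4. Over all genes 5.8% fell and 9.77% rose. The inducible hexokinase Hk2 read 0.87, 0.66, -0.22 and 0.55 against 1.39 to 2.39 (median 1.96) and fell by 1.45 ± 0.25 (limma adjusted p = 0.00244), whereas its constitutive sister Hk1 rose by 0.56 ± 0.11 (adjusted p = 0.00466). Ldha, lactate dehydrogenase, read 2.97, 2.82, 2.66 and 2.77 against 3.52 to 3.68 (median 3.60), where the 6 control arrays lay very close together, and fell by 0.79 ± 0.10 (adjusted p = 0.000529). The lactate carrier Slc16a1 fell by 0.72 ± 0.20 (adjusted p = 0.0208) and did not pass without NICD replicate 1 (-0.64, 0.068) or 2 (-0.66, 0.063). The falls of Ldha and Slc16a1 turned to 0.16 and 0.40 under division by the median absolute deviation.

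Some genes known for steady expression in all cells differed strongly between the groups. Ndufb10, a subunit of respiratory complex I, read 5.01, 5.26, 5.05 and 5.19 in NICD and 2.59 to 3.49 (median 3.23) in control arrays (1.96 ± 0.16, limma adjusted p = 8.62e-05), while Ndufs3 of the same complex fell by 0.68 ± 0.12 (adjusted p = 0.0027). Of 46 oxidative phosphorylation genes 7 rose and 3 fell. Cox5b rose by 1.00 ± 0.14 on 1 probe set and fell by 1.07 on another (adjusted p = 0.000512). Rps28 rose by 1.73 ± 0.18 on 1 probe set (adjusted p = 0.000254) and was at -0.21 on another (adjusted p = 0.329). Of 46 ribosomal protein genes 7 rose and 0 fell, with 2 lower by median centring on its own. Of 32 proteasome genes 3 rose and 0 fell. Over all genes 9.77% rose and 5.8% fell. Among 466 genes with several probe sets, 135 had some but not all of them past the threshold, and 5 had probe sets called in opposite directions. Dad1, Ndufb10 and Rps28 differed by 2.19, 1.97 and 1.71 between the genotypes in vehicle ears as well. The cause was not tested.

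Markers of other cell types in the sort passed in small numbers, where 9.77% of all genes rose and 5.8% fell. Of 15 pericyte and smooth muscle markers 2 rose (Higd1b and Mylk) and 2 fell (Rgs4 and Rgs5), and the list's mean was 3.18 to 3.95 on control and 3.29 to 3.78 on NICD arrays. Rgs5 fell by 0.55 ± 0.18 (limma adjusted p = 0.0428), lost the call in 8 of the 10 fits that left out 1 array (-0.49 and 0.116 at the weakest, without NICD replicate 3), and was at -0.89 on another probe set (adjusted p = 0.0114). Of 11 fibroblast markers 2 fell, Crabp1 and Pdgfra, the latter by 1.24 ± 0.34 (adjusted p = 0.0197) with overlapping groups and without a call when NICD replicate 3 was left out (-0.98, 0.065). Of 15 keratinocyte markers Dsg3 fell, of 9 neutrophil markers Lcn2 rose, and of 7 platelet markers Gp9 fell, with platelet means of 1.11 to 2.58 and 1.29 to 1.62. Of 3 mast cell markers the histidine decarboxylase Hdc rose, and the mean of the list was -0.12 to 0.13 on control and 0.44 to 0.91 on NICD arrays, with no overlap. The transferrin receptor Tfrc of the erythroid list, Tyrp1 of 8 melanocyte and Schwann cell markers and Retn of 4 adipocyte markers fell. Of 5 T and NK cell, 1 B cell, 6 muscle and 8 chondrocyte markers 0 passed under all 3 scalings.

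In vehicle ears the same genotypes can be set side by side, on arrays shared with none of the above. There 2301 probe sets (17.1%) differed, and 813 (6.04%) were higher and 686 (5.1%) lower under all 3 scalings. Without NICD vehicle replicate 4 the 2301 became 1511, and the overlaps that follow were not recomputed without it. Of the probe sets that rose in DNFB ears 475 also rose in vehicle ears, 36.3% of the DNFB and 58.4% of the vehicle set, and 266 fell in both, 33.5% and 38.8%, with 1 in opposite directions. Hey1 differed by 0.92 ± 0.12 in vehicle ears (limma adjusted p = 0.00101), Npr3 by 2.50 ± 0.16 (adjusted p = 6.08e-06) and Lyve1 by 1.68 ± 0.26 (adjusted p = 0.00228). Sele was -0.0047 ± 0.17 there (adjusted p = 0.989), Il15 -0.079 ± 0.15 (adjusted p = 0.755), Slc7a11 0.36 ± 0.28 (adjusted p = 0.4) and Hk2 -0.23 ± 0.18 (adjusted p = 0.398), against differences of 1.24, 1.32, -0.98 and -1.45 in DNFB ears. Of the chemokines and cytokines that fell, Cxcl1 (-0.63), Csf3 (-1.54), Ccl20 (-0.95) and Ccl24 (-0.84) were lower there too under all 3 scalings (limma adjusted p from 0.00585 to 0.0175). Cxcl5 (-0.20), Il11 (-0.30), Ccl11 (-0.082) and Lif (0.046) did not pass there (adjusted p from 0.326 to 0.888). Over that whole list 4 members were higher and 8 lower in vehicle ears under all 3 scalings.

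Whether the genotype difference itself changed with DNFB was tested across all 20 arrays, and 2 probe sets passed (0.0149%), with 1525 at an unadjusted p under 0.05 where 673.1 would be expected without any difference. Rbp7 differed by 2.14 ± 0.34 more in DNFB than in vehicle ears (limma adjusted p = 0.0259), and did not pass after quantile normalization (adjusted p = 0.0623). Mpp7, a scaffold of cell junctions, was 0.82 ± 0.13 in vehicle and -0.62 ± 0.17 in DNFB ears, a difference of -1.44 ± 0.22 (adjusted p = 0.0236, and 0.0276 after quantile normalization), and its DNFB value did not pass without NICD replicate 2 (-0.49, 0.068). Neither passed without NICD vehicle replicate 4 (both adjusted p = 0.0972), an array whose title says vehicle but whose description says DNFB, and which the title placed here. Sele (1.24 ± 0.25), Il15 (1.40 ± 0.28), Flt1 (0.68 ± 0.13) and Kdr (0.78 ± 0.17) did not pass (adjusted p = 0.0762, 0.0761, 0.0731 and 0.0924), and passed with trended and robust variances (0.0353, 0.0353, 0.0122 and 0.0216), under which 29 probe sets did. Slc7a11 (-1.34 ± 0.39) and Hk2 (-1.22 ± 0.32) passed in neither fit (limma adjusted p = 0.183 and 0.139, and 0.129 and 0.103 with those variances).

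The promoter of Rbp7, one of the 12 largest rises, is shown as the 250 bases before the start in RefSeq (GRCm38.p6, chr4:149454969-149455218, minus strand, 5′ to 3′ on the gene's strand). Capitals mark TGGGAA, the core that RBPJ binds, sought on both strands.
Rbp7: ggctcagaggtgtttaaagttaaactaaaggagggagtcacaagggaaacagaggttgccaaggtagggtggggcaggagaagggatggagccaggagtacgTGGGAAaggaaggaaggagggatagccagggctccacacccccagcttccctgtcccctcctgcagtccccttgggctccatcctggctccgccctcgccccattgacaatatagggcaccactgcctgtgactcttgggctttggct
The single match lies 148 to 143 bases before the start. A match is common, at 21.6% of all 32851 windows of that length and 23.8% of the 10028 measured genes with a window, 25.4% of those that rose and 22.2% of those that fell.

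**Figure D5:**
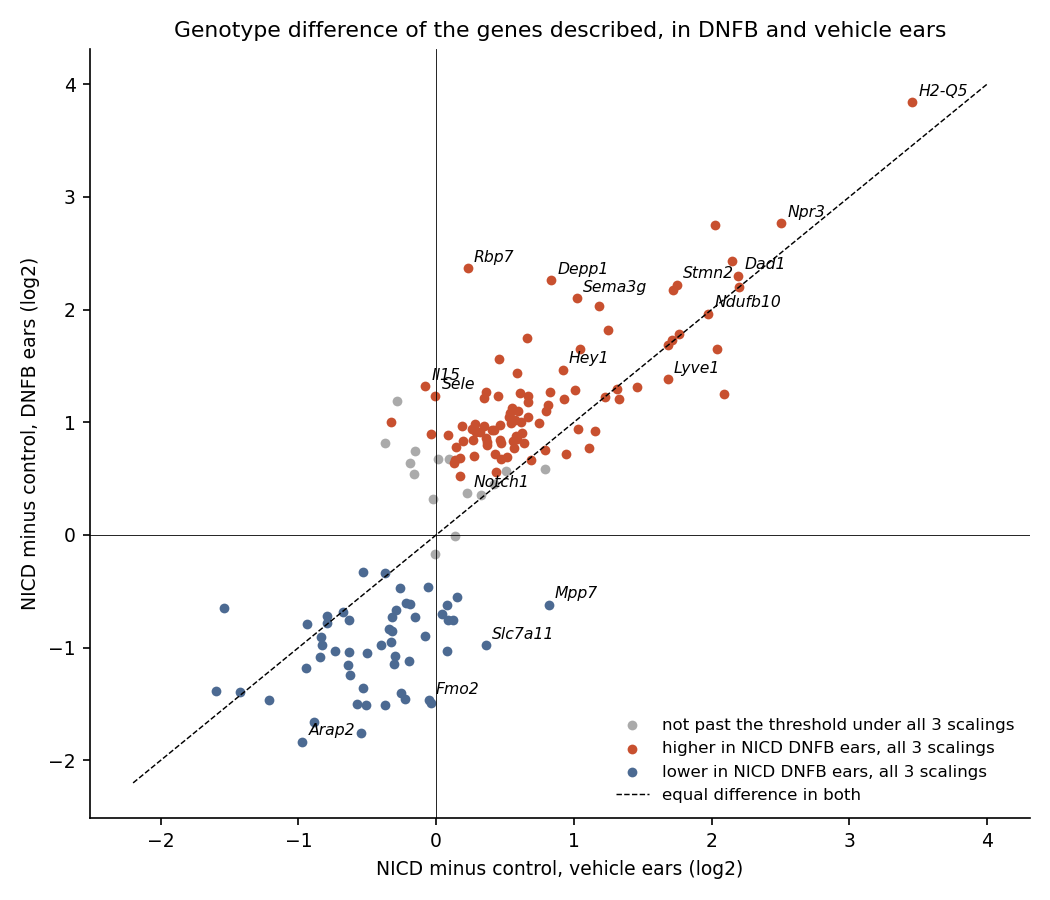
NICD minus control in DNFB ears (log2, vertical axis) against the same difference in vehicle ears (log2, horizontal axis) for the 161 genes described, with one point per gene, colours for genes that rose (orange) or fell (blue) in DNFB ears under all 3 scalings and a dashed line of equal difference. Npr3, Dad1 and Ndufb10 lie near the line, Rbp7 at 0.23 and 2.37 and Sele at -0.0047 and 1.24 lie above it, and Mpp7 lies below it.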

How the data were processed

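Endothelial cells were measured on 20 Affymetrix arrays, 6 control DNFB, 4 NICD DNFB, 6 control vehicle and 4 NICD vehicle, with groups taken from sample titles. The deposited values are log2 expression values per probe set that the authors made with RMA in Affymetrix Expression Console, per the submitters' processing notes. Versions, options, whether all arrays were normalized together and the genome build are not given in the sources used here. No raw intensities were used here. The lowest deposited value was 0.41 to 0.50 on control and 1.21 to 1.30 on NICD DNFB arrays, and the median absolute deviation 2.01 to 2.11 and 1.49 to 1.57. The precision is limited by the number of arrays.

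Of 41345 probe sets, 23521 carry 1 gene symbol, 1814 several and 16010 none in the platform annotation. Probe sets with 1 symbol, not on X or Y, and above the array median on at least 4 of the 10 DNFB arrays were kept. Each array's median was subtracted, and limma 3.58.1 in R 4.3.3 fitted 1 mean per group to the 10 arrays, with p-values adjusted by Benjamini-Hochberg over all 13462 probe sets. The difference between DNFB and vehicle ears was fitted to all 20 arrays, without pairing ears by replicate number. The 3 scalings that "rose" and "fell" rest on are median centring, quantile normalization and cyclic loess. The probe set of highest mean stands for a gene in counts of lists. Genes were named as Notch1, the 12 genes with the largest rise and the 12 with the largest fall under all 3 scalings with groups that do not overlap, a mean in the higher group at least 1 log2 unit over the array median and no predicted or small RNA name, and members of 44 lists with 1095 symbols, 913 of them measured. Members, lists and genes were chosen with earlier results of these data known. Xist, Eif2s3y, Ptprc and Krt14 were named to describe the arrays.

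The fit was tested on simulated data. Alternatives were 6 other scalings, filters, probe set classes, variance models, a replicate block, a 1.5-fold limit and each array left out. Promoters are RefSeq windows of GRCm38.p6. Python 3.11.15 with matplotlib 3.10.9 made the figures.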

Additional observations from a re-analysis of the deposited data

Results flagged for a closer look

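In 322 groups of arrays of the genes described, 14 arrays stood apart from their group by a gap of the size that chance gives in about 1 of 20 groups. In NICD arrays these were Stmn2 at 4.65 in replicate 4 (the nearest array at 5.17), Jag1 at 5.13 in replicate 3, Nr2f2 at 4.18 in replicate 3, Ephb4 at 5.04 and Cxcl12 at 3.63 in replicate 1, Ccl27a at 2.04 and Eif2ak2 at 2.84 in replicate 4, Ccl24 at -0.21 and Frzb at 0.28 in replicate 1 and Efna1 at 6.22 in replicate 2. In control arrays they were Nrp1 at 4.37 and Mmp14 at 5.28 in replicate 3, Serpinb2 at 5.20 in replicate 5 and Hk1 at 2.77 in replicate 2.

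The genotype difference was 2.14 larger in DNFB than in vehicle ears for Rbp7 and differed by -1.44 for Mpp7, by the test of that difference across all arrays.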

How the results depend on the processing

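The 3510 probe sets past the threshold became 9348 with arrays divided by their median absolute deviation, 2137 with ranks within arrays, 6792 with no filter on low values and 50 with a 1.5-fold limit. The 2554 higher ones became 634 on deposited values, 1345 after quantile normalization, 1444 after cyclic loess, 8752 with division by the deviation, 1040 with ranks, 5651 with no filter and 45 with the fold limit. The 956 lower ones became 4364 on deposited values, 596 with division by the deviation and 5 with the fold limit. Leaving out 1 array at a time gave 2399 to 3468 in all, 1724 to 2566 higher and 613 to 944 lower, the 613 without NICD replicate 3.

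Notch1 was -7.5e-06 on deposited values, 0.036 after quantile normalization, 0.050 after cyclic loess, 0.070 percentile points with ranks, 0.33 with the replicate block and 0.37 with the fold limit, and in none of these did it pass. Leaving out 1 array gave 0.33 to 0.41.

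The vehicle count of 2301 was 1511 without NICD vehicle replicate 4 and 393 with the replicate block, and the 2 probe sets whose genotype difference changed with DNFB were 1 after quantile normalization, 29 with trended and robust variances, 0 by limma without NICD vehicle replicate 4 (1305 at an unadjusted p under 0.05, and no other tool was run) and 5 with a replicate block within genotype. Same-numbered NICD and control DNFB arrays had correlations of their deviations from the group means of -0.025, -0.099, -0.091 and 0.10. Of the NICD arrays 0 of 4 correlated best with the control array of the same number. The numbers thus do not pair NICD with control DNFB arrays, and in that comparison the block gave 2809 probe sets. Whether DNFB and vehicle arrays of the same number and genotype came from the same animal was not checked. The fit that gave the 2 probe sets did not pair them.

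Directions turned for 1 gene besides Notch1 under the scalings other than division by the deviation. Pecam1 was -0.020 on deposited values, -0.065 after quantile normalization, -0.038 after cyclic loess and -0.027 percentile points with ranks. Division by the deviation, which moved the median of all to 0.79, turned Notch2 (0.70), Notch3 (1.06), Dll1 (0.11), Rbpj (0.78), Hes1 (0.34), Csf3 (0.76), Cxcl1 (0.46), Nfkbiz (1.15), Jak2 (1.27), Srxn1 (0.71), Gclm (0.82), Gclc (0.66), Gsr (0.40), Slc7a11 (0.28), Hmox1 (0.86), Procr (0.68), Serpinb2 (0.046), Ednrb (1.15), Mmp2 (0.33), Ldha (0.16), Slc16a1 (0.40), Mpp7 (0.18), Slit3 (0.076) and Rgs5 (1.35). The cause was not tested. The block in vehicle ears, the means relative to general endothelial genes and the list counts without each array were chosen after seeing the data.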

Other observations

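Some genes of guidance, Wnt and stress responses also passed under all 3 scalings in DNFB ears. Of 32 angiopoietin, ephrin and guidance genes 9 rose and 1 fell, beside 9.77% and 5.8% over all genes. Efna1, the ligand ephrin-A1, read 6.12, 6.22, 6.14 and 6.13 in NICD and 5.25 to 5.39 (median 5.30) in control arrays (0.84 ± 0.09, limma adjusted p = 0.000312), and the semaphorin receptor Plxnd1 rose by 0.97 ± 0.11 (adjusted p = 0.000451). In both every NICD array lay above every control array. Ntn1 rose by 0.76 ± 0.22 and Slit3 fell by 0.66 ± 0.21 (adjusted p = 0.0249 and 0.0404), calls lost in 4 and 7 of the 10 fits that left out 1 array. Of 28 tip cell genes 7 rose and 2 fell, with the insulin receptor Insr up by 1.18 ± 0.15 (adjusted p = 0.000547).

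Of 30 Wnt genes 3 rose and 2 fell, a share near that over all genes. The receptor Fzd6 rose by 1.29 ± 0.21 and the transcription factor Tcf7l2 by 0.83 ± 0.16, whereas its relative Lef1 read 0.78, -0.012, -0.038 and 0.55 against 1.21 to 1.79 (median 1.48) and fell by 1.15 ± 0.18 (limma adjusted p = 0.00171, 0.00465 and 0.00143), and the secreted inhibitor Frzb fell by 1.39 ± 0.34 (adjusted p = 0.0117). Of 31 immediate early and heat shock genes, which tissue digestion can induce, 3 rose and 4 fell. The chaperone Hspa1a read 8.38, 8.49, 8.34 and 8.45 against 7.02 to 7.21 (median 7.09) (1.32 ± 0.09, adjusted p = 3.16e-05), with a narrow spread in both groups, and the phosphatase Dusp1 rose by 1.21 ± 0.16 (adjusted p = 0.000622), while the nuclear receptor Nr4a3 fell by 0.98 ± 0.22 (adjusted p = 0.0081). Of 23 apoptosis regulators 7 rose and 1 fell, among them the pore former Bak1 by 0.92 ± 0.15 (adjusted p = 0.00188). Of 31 genes of the unfolded protein response Edem1 rose and Asns fell. Of 44 cell cycle genes 3 rose and 0 fell, beside 9.77% and 5.8% over all genes, with 1 lower by quantile normalization. By chromosome, the share of probe sets past the threshold under all 3 scalings ran from 12.9% on chromosome 9 to 19.4% on chromosome 17, which carries the MHC, leaving aside 10 mitochondrial probe sets.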
